A study of Mus musculus with 6 samples.

Results

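The mitophagy receptors and adaptors described here are 10 genes chosen by name: *Pink1*, *Tbk1* and *Usp30*, which act on ubiquitin or on its readers; *Sqstm1*, *Optn* and *Tax1bp1*, the ubiquitin-binding adaptors; *Bnip3*, *Bnip3l* and *Fundc1*, the receptors of the outer mitochondrial membrane; and *Phb2*, the receptor of the inner membrane. They are 10 of 36137 genes that had a transcript in the deposited tables, and all 10 were among the 18506 genes tested. RNA came from bone marrow-derived macrophages (BMDMs), cells grown out of mouse bone marrow for 7 days and then kept for 8 hours in hypoxia with serum starvation (HSS), a culture model of ischemia, at an oxygen level that the labels give as 2.1%. There were 3 WT and 3 Drp1 KO libraries. DRP1 is the GTPase that cuts mitochondria in fission and is encoded by *Dnm1l*. Drp1 KO mice carried LysM-Cre+/- and Drp1 fl/fl, and the study's methods describe the WT mice of this comparison as LysM-Cre+/- Drp1+/+, so both groups carried Cre under the lysozyme M promoter, which is active in myeloid cells. The mice were adults of both sexes. Marrow of 2 mice per genotype was pooled for culture. The study gives for each group of mice an n equal to the number of libraries, but no source used here states whether each library had its own pool, so the p-values measure the spread between these libraries, which may be technical. Every library was exposed to HSS, and none here is from untreated cells.

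Mitophagy removes mitochondria by enclosing them in autophagosomes. In the ubiquitin route, PINK1 builds up on damaged mitochondria and phosphorylates ubiquitin and the ligase parkin, USP30 takes ubiquitin off the outer membrane, and p62 (encoded by *Sqstm1*), optineurin and TAX1BP1 bind the ubiquitin on one side and the LC3 and GABARAP proteins of the autophagosome on the other, with TBK1 phosphorylating the adaptors. In the receptor route, BNIP3, NIX (encoded by *Bnip3l*) and FUNDC1 sit in the outer membrane and bind LC3 directly. *Bnip3* and *Bnip3l* are known targets of the hypoxia-inducible factor HIF-1, and fission by DRP1 is known to cut mitochondria into pieces that autophagosomes can take up.

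The libraries held 23389488 to 32231206 estimated counts, and 3 counts, taken as the floor of detection, were 0.0917 to 0.136 CPM, the usual unit of counts scaled to a common library total, here after TMM scaling. Every member lay far above it. *Dnm1l* itself had 72.6 ± 2.61 CPM in WT and 61.9 ± 3.91 in Drp1 KO (SD, n = 3), a log2 fold change of -0.23 (SE 0.09, adjusted p = 0.248). A sum over the whole gene does not show whether floxed exons were missing. The study reports the deletion of DRP1 at the protein level, by immunoblot of BMDMs from Drp1 KO and Drp1 fl/fl mice. Libraries 1 of both groups stood apart from libraries 2 and 3 on the second principal component (29.5% of the variance), while the first (46%) set the genotypes apart. All 10 macrophage markers were measured, at a summed level of 14145 to 15611 CPM in WT and 12738 to 15188 in Drp1 KO. The neutrophil list summed to 137 to 142 CPM in WT and to 164 to 263 in Drp1 KO, with *Ly6g* at 0 counts and *Elane* at 8 counts over all 6 libraries, and its part in the values below was not tested. Lymphocyte, dendritic and fibroblast lists summed to at most 13.2, 5.89 and 3.45 CPM in any library.

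None of the 10 mitophagy genes passed an adjusted p of 0.05 in the genotype comparison (quasi-likelihood test of edgeR), where 621 of 18506 genes (3.36%) did. With n = 3 per group, 3 of the 10 were higher and 7 lower, their median log2 fold change was -0.02 against 0.00 over all genes tested, and 8 of the 10 lay within 0.2 of 0 on the log2 scale. The largest changes were both lower in Drp1 KO: *Optn* by 0.40 and *Bnip3* by 0.26 on the log2 scale, and they were also the 2 members with an unadjusted p under 0.05 (16.4% of all genes). By the criteria the study used, a change of more than 0.32 on the log2 scale in either direction and an unadjusted p under 0.05, 1 member was called, *Optn*, against 12.7% of all genes. Since these are whole cultures, less of a transcript per cell and fewer cells that hold it cannot be told apart.

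**Figure D1:**
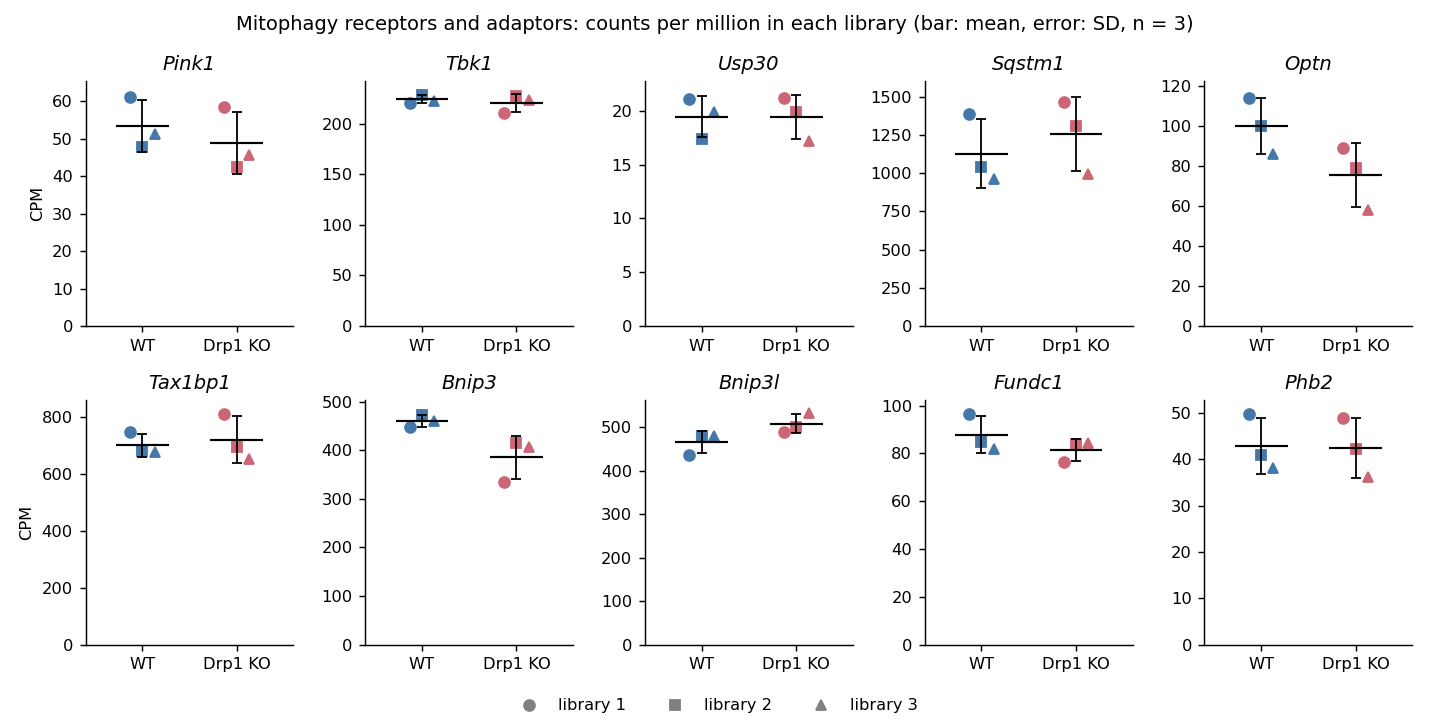
Level of each of the 10 mitophagy genes in CPM (y axis, from 0) in the 3 WT and 3 Drp1 KO libraries; the symbol gives the library number, the bar the mean and the error bar the SD. *Bnip3* is lower in every Drp1 KO library (335 to 416 CPM) than in every WT library (448 to 474), *Bnip3l* is higher (489.8 to 532 against 436 to 480.2), and the other 8 genes overlap between the groups.

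The count was different when libraries of the same number were compared with each other. Deviations from the group mean correlated at 0.51, 0.204 and 0.298 between WT and Drp1 KO libraries 1, 2 and 3. WT library 2 and Drp1 KO library 3, of different numbers, correlated at 0.326, so these values do not settle how libraries 2 and 3 pair. Libraries of the same number were treated as pairs in a second fit with the number as a replicate block. With the replicate block, *Optn* (log2 fold change -0.42, SE 0.08, adjusted p = 0.00628) and *Bnip3* (-0.26, SE 0.08, adjusted p = 0.0497) passed, 2 of the 10 members, where 12.0% of all genes passed. *Bnip3* sat at the threshold, and without pair 1, 2 or 3 its adjusted p was 0.143, 0.114 and 0.135. *Optn* had adjusted p-values of 0.00235 without pair 1, 0.0228 without pair 2 and 0.0817 without pair 3. The other 8 members did not pass with the block, and the smallest adjusted p among them was 0.255, for *Sqstm1*.

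**Figure D2:**
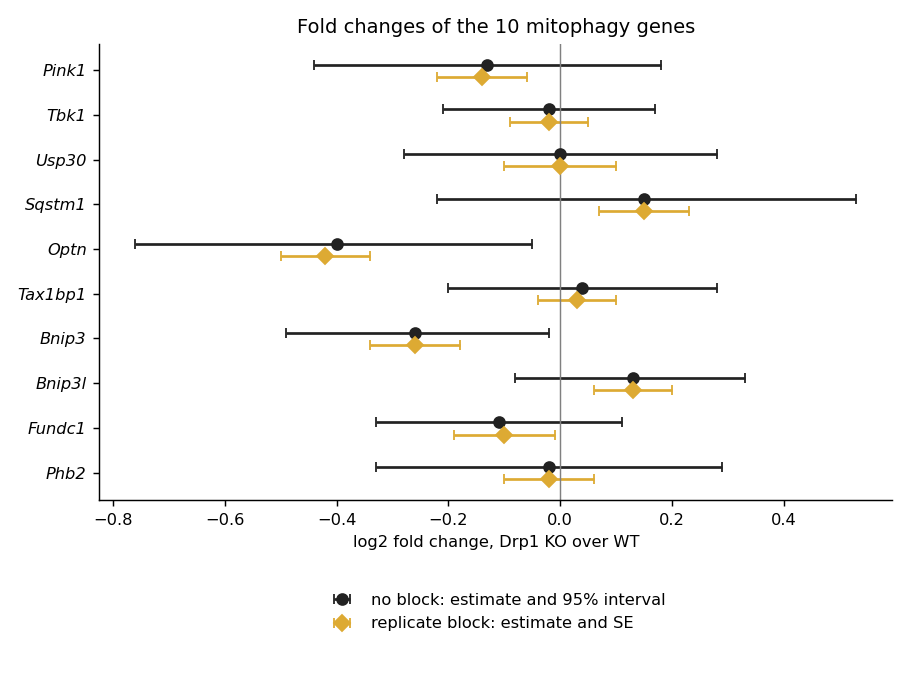
Log2 fold change of Drp1 KO over WT (x axis) for the 10 genes; black circles give the fit without a block with its 95% interval, and yellow diamonds the fit with the replicate block with its SE. The black intervals of *Optn* (-0.76 to -0.05) and *Bnip3* (-0.49 to -0.02) lie below 0, and those of the other 8 genes include 0.

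*Pink1*, the kinase that starts the ubiquitin route, had 61.3, 47.9 and 51.3 CPM in WT libraries 1 to 3 and 58.4, 42.6 and 45.8 CPM in Drp1 KO libraries 1 to 3. Library 1 was the highest in both groups and the groups overlapped, although each Drp1 KO library lay below the WT library of its own number. The log2 fold change was -0.13 (SE 0.14, 95% interval -0.44 to 0.18, adjusted p = 0.732). *Pink1* lies on chromosome 4 of GRCm39 from 138039346 to 138053618 on the minus strand, and 1514 bases of its exons overlap exons of *Ddost* (78.0 CPM) on the opposite strand. The strand setting of the read assignment is not given in the sources used here, so part of the counts of these 2 genes may have been exchanged.

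*Tbk1*, the kinase that phosphorylates optineurin and p62 and also drives interferon induction, was the steadiest of the 10. Its libraries held 221, 229 and 223 CPM in WT and 211, 228 and 224 CPM in Drp1 KO. The groups lay on top of each other, with a log2 fold change of -0.02 (SE 0.09, 95% interval -0.21 to 0.17, adjusted p = 0.949). *Usp30*, the deubiquitinase that opposes parkin, was the scarcest, with 21.1, 17.4 and 19.9 CPM in WT and 21.2, 19.9 and 17.2 CPM in Drp1 KO. Its Drp1 KO to WT ratio was 0.997, with a 95% interval of -0.28 to 0.28 on the log2 scale (adjusted p = 0.994). The exons of *Usp30* overlap 2214 bases of *Alkbh2* (1.03 CPM) and 226 bases of *Svop* (0.077 CPM) on the opposite strand.

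*Sqstm1* encodes p62, the best known autophagy adaptor, and was the most abundant member by counts. WT libraries 1 to 3 had 1385, 1040 and 963 CPM, and Drp1 KO libraries 1 to 3 had 1469, 1307 and 996 CPM. Each Drp1 KO library was above its WT partner, by 0.09, 0.33 and 0.05 on the log2 scale, and the groups overlapped because library 1 was far above library 3 in both. The log2 fold change was 0.15 (SE 0.17, 95% interval -0.22 to 0.53, adjusted p = 0.743), the widest interval of the 10. Its exons overlap 1412 bases of *Mrnip* and 141 bases of *Mgat4b* on the opposite strand.

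*Optn* (chromosome 2 of GRCm39, 5022703 to 5068945, minus strand) encodes optineurin, the adaptor that with NDP52 is known to carry most of PINK1- and parkin-driven mitophagy in cultured cells. WT libraries 1 to 3 had 114, 100.2 and 86.0 CPM. Drp1 KO libraries 1 to 3 had 89.4, 79.3 and 58.1 CPM. Drp1 KO was lower by 0.35, 0.34 and 0.57 on the log2 scale within numbers 1, 2 and 3, but Drp1 KO library 1 lay above WT library 3, so that the groups overlapped. The Drp1 KO level was 0.756 of the WT level, a log2 fold change of -0.40 (SE 0.16, 95% interval -0.76 to -0.05, adjusted p = 0.236), and the SD over 3 libraries was 13.9 CPM in WT and 16.0 in Drp1 KO. With 1 library left out it ran from -0.55, without Drp1 KO library 1, to -0.24, without Drp1 KO library 3 (adjusted p = 0.47), and the call by the study's criteria was lost without Drp1 KO library 3, without WT library 1 (-0.30) and without WT library 2 (-0.42). The 3 genes of at least 10 CPM whose profile over the 6 libraries was nearest to that of *Optn*, by the root mean square difference of log2 deviations among 7953 genes, were *Psmd7* (0.052), *Higd2a* (0.07) and *Ddrgk1* (0.071). Their own log2 fold changes were -0.32, -0.33 and -0.44, with adjusted p-values of 0.404, 0.363 and 0.249. They were picked for likeness over both genotypes, so fold changes near that of *Optn* follow from the choice.

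*Tax1bp1*, the adaptor that also brings in TBK1 and restrains inflammatory signalling, had 746, 679 and 675 CPM in WT and 811, 695 and 652 CPM in Drp1 KO. The Drp1 KO libraries spread around the WT range on both sides. The log2 fold change was 0.04 (SE 0.11, 95% interval -0.20 to 0.28, adjusted p = 0.926).

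Among the receptors, the paralogs *Bnip3* and *Bnip3l* had fold changes of opposite sign, and each had groups that did not overlap, as did 10.3% of all genes on the lower side, 11.7% on the higher side and 21.9% in all. *Bnip3* (chromosome 7, 138490690 to 138511253, minus strand) had 448, 474 and 461 CPM in WT and 335, 416 and 407 CPM in Drp1 KO. The Drp1 KO libraries were all lower, library 1 the most, by 0.42, 0.19 and 0.18 on the log2 scale within numbers 1, 2 and 3. The log2 fold change was -0.26 (SE 0.11, 95% interval -0.49 to -0.02, adjusted p = 0.259), and without libraries 1 of both groups it was -0.19 (adjusted p = 0.163). When counts were scaled for transcript length within the gene, it was -0.45, with an adjusted p of 0.0661 without the block and 0.00642 with it.

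*Bnip3l* (chromosome 14, 67222678 to 67246356, minus strand), which encodes NIX, the receptor known from the clearance of mitochondria in maturing red cells, had 436, 479.7 and 480.2 CPM in WT and 489.8, 501 and 532 CPM in Drp1 KO. Every Drp1 KO library was higher, and the gap between the highest WT and the lowest Drp1 KO library was small. The log2 fold change was 0.13 (SE 0.09, 95% interval -0.08 to 0.33, adjusted p = 0.579), and with counts scaled for transcript length it was -0.01 (adjusted p = 0.986). A processed pseudogene, *Bnip3l-ps*, had 0.343 CPM. *Fundc1*, the receptor whose binding to LC3 is set by phosphorylation under hypoxia, had 96.6, 84.9 and 81.8 CPM in WT and 76.2, 83.9 and 84.3 CPM in Drp1 KO. Library 1 was the highest of the WT and the lowest of the Drp1 KO libraries, so the log2 fold change of -0.11 (SE 0.10, adjusted p = 0.684) became 0.01 without libraries 1.

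*Phb2* encodes prohibitin 2, an inner-membrane protein that binds LC3 once the outer membrane has been opened. WT libraries had 49.7, 40.9 and 38.2 CPM and Drp1 KO libraries 48.9, 42.3 and 36.1 CPM. Both groups ran over the same range, and the log2 fold change was -0.02 (SE 0.14, 95% interval -0.33 to 0.29, adjusted p = 0.981).

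The exact two-sided permutation test over the 6 libraries gave 0.1 for *Bnip3* and *Bnip3l*, the smallest p that 3 against 3 allows, 0.2 for *Optn*, and 0.4 to 1 for the other 7 genes. For *Fundc1*, library 1 was the highest of the WT and the lowest of the Drp1 KO libraries. For the other members its place was the same in both genotypes. It was the highest of its group in both for 6 members (*Pink1*, *Sqstm1*, *Optn*, *Tax1bp1*, *Phb2* and *Usp30*) and the lowest in both for 3 (*Bnip3*, *Bnip3l* and *Tbk1*). Among 12248 genes of at least 1 CPM the corresponding shares were 31.4% and 21.8%.

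The shares of single transcripts of the 3 outer-membrane receptors are described next. The deposited tables assign reads to single transcripts, and 2 transcripts carried most of the *Bnip3* signal. Bnip3-201 is the canonical transcript, with 6 exons, and Bnip3-203 stops in an extended exon 5 on chromosome 7 (138496010 to 138496258 on the minus strand of GRCm39) and has no exon 6. Both are annotated as coding, with 187 and 173 codons before the stop, and they share the first 518 coding bases. The ends of both coding regions are shown because they are where the 2 transcripts part. The last 30 shared bases, at chr7:138496109-138496138, are in lower case and the bases of that transcript alone, through its stop codon, in capitals. For Bnip3-201 the capitals lie in exon 6 at chr7:138493644-138493689, and for Bnip3-203 they run straight on into the intron to 138496105.
Bnip3-201: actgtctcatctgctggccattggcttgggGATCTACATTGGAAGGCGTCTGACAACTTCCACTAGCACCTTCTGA
Bnip3-203: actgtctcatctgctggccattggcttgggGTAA
The 14 codons that Bnip3-203 lacks are the carboxyl end of BNIP3, a protein held in the outer membrane by a segment near that end.

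Bnip3-203 had 223, 232 and 221 CPM in WT and 134, 143 and 137 CPM in Drp1 KO. Bnip3-201 had 231, 230.3 and 233 CPM in WT and 201, 266 and 267 CPM in Drp1 KO. The lower *Bnip3* count in Drp1 KO lay on Bnip3-203, in all 3 libraries, while Bnip3-201 was lower in library 1 and higher in libraries 2 and 3. As a share of the gene's TPM (a level per length, scaled to the same total in each library), Bnip3-203 was 68.54 ± 0.94% in WT and 56.61 ± 3.75% in Drp1 KO (SD, n = 3), and Bnip3-201 was 27.86 ± 0.91% and 39.74 ± 2.86%. A fit over 62020 single transcripts, added after these values had been seen, gave Bnip3-203 a log2 fold change of -0.71 (SE 0.08, edgeR adjusted p = 0.036) and Bnip3-201 one of 0.08 (SE 0.13, adjusted p = 0.94). Bnip3-203 was the only member transcript of those tested that passed, where 206 transcripts (0.332%) did. Its fold change stayed between -0.74 and -0.69 when 1 library was left out, but its adjusted p rose to 0.0625 to 0.159 with each library left out in turn and was 0.117 with the replicate block. With that block no transcript passed in edgeR (0 of 62020, with 7231 at an unadjusted p under 0.05). Without the block limma-voom called 235 transcripts, Bnip3-203 among them (adjusted p = 0.0265).

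In *Bnip3l*, the short transcript Bnip3l-204 (354 bases, no coding region defined) had 65.94%, 66.20% and 65.11% of the gene's TPM in WT and 61.72%, 56.06% and 57.97% in Drp1 KO. Bnip3l-205 (789 bases, no coding region defined) had 14.17%, 12.82% and 12.81% in WT and 17.18%, 19.86% and 19.00% in Drp1 KO. Neither pair of groups overlapped, which was also so for 22.7% of the 27232 transcripts whose shares were compared. In the transcript fit Bnip3l-204 had a log2 fold change of -0.15 (SE 0.12, adjusted p = 0.79). Bnip3l-205 had one of 0.53 (SE 0.10, adjusted p = 0.11) and the full-length Bnip3l-201 one of 0.12 (SE 0.09, adjusted p = 0.761).

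In *Fundc1*, Fundc1-203 starts from another first exon than Fundc1-201, and its coding region begins 43 codons further in. Its share of the gene's TPM was 51.64%, 52.24% and 45.74% in WT and 59.34%, 54.27% and 60.10% in Drp1 KO, and that of Fundc1-201 was below WT in each Drp1 KO library (36.98% to 41.31% against 46.42% to 50.70%). The shares of 22.7% of the transcripts compared did not overlap between the groups either. By CPM neither passed, with log2 fold changes of 0.29 (SE 0.17, adjusted p = 0.632) for Fundc1-203 and -0.26 (SE 0.12, adjusted p = 0.525) for Fundc1-201. The coding bases of Fundc1-201 that lie before the first codon of Fundc1-203 are printed because FUNDC1 is known to bind LC3 through a motif near its amino end. They come from chrX:17438392-17438419 and chrX:17437595-17437698 on the minus strand, and the capitals mark the ATG with which Fundc1-203 begins.
Fundc1-201: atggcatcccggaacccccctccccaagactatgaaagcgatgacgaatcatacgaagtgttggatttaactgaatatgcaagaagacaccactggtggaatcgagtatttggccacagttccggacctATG

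These shares are estimates of a model that divides reads between transcripts, and reads in shared exons do not name their transcript. In the annotation used here 649 of 748 exon bases of Bnip3-203 also belong to Bnip3-201, and 99 do not. The deposited lengths of Bnip3-203 and Bnip3-201, 719 and 1756 bases, differ from their 748 and 3647 exon bases in the annotation. The effective lengths in the tables moved with genotype: the median difference between a transcript's length and its effective length, over 30561 transcripts of at least 1000 bases, was 225 to 247 bases in WT and 174 to 205 in Drp1 KO, and its part in the shares was not tested. For 17986 of 116873 transcripts the effective length was above the length in at least 1 library, so this difference is not a measure of fragment length alone. Of 27232 transcripts of at least 1 TPM in genes with 2 or more such transcripts, the shares of 22.7% did not overlap between the groups, against 9 of 43 member transcripts. The share of 9.3% of them differed by at least as many percentage points as that of Bnip3-203 (11.9).

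**Figure D3:**
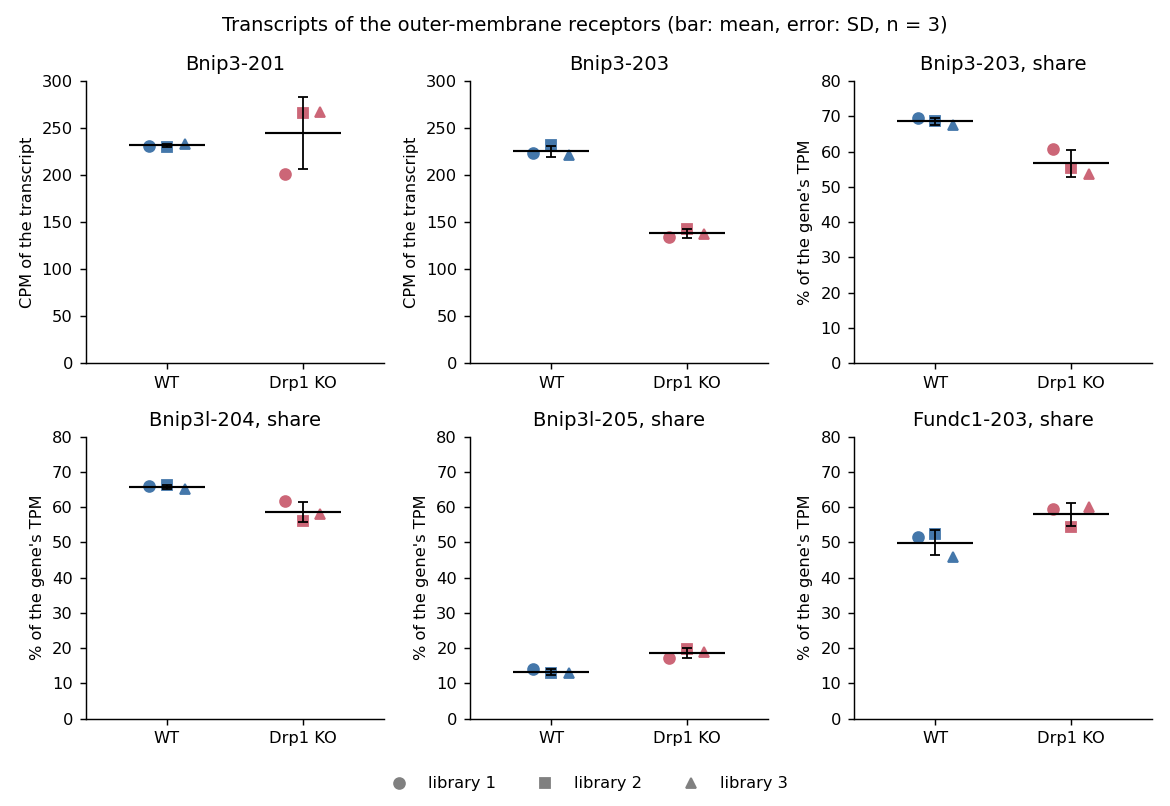
Transcripts of the outer-membrane receptors in each library: CPM of Bnip3-201 and Bnip3-203 (first 2 panels), and the share of the gene's TPM in percent of Bnip3-203, Bnip3l-204, Bnip3l-205 and Fundc1-203; bars are means, error bars SD, symbols library numbers. Bnip3-203 has 221 to 232 CPM in WT and 134 to 143 in Drp1 KO, while Bnip3-201 has 230.3 to 233 in WT and 201 to 267 in Drp1 KO.

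Levels between genes were compared per length, in TPM. Summed over all transcripts of a gene, the order was *Sqstm1* (1480 to 2085 TPM over the 6 libraries), *Bnip3l* (863 to 1013), *Bnip3* (522 to 927), *Tax1bp1* (342 to 382), *Tbk1* (283 to 369.6), *Fundc1* (127 to 157), *Optn* (39.9 to 72.1), *Phb2* (38.3 to 52.9), *Pink1* (22.0 to 32.4) and *Usp30* (7.97 to 10.1). The ranges overlapped between *Bnip3l* and *Bnip3*, between *Tax1bp1* and *Tbk1*, and between *Optn* and *Phb2*, and each of the other neighbours in the order was apart. Short transcripts without a full coding region held much of these levels for 3 of the genes. Tbk1-207, a retained-intron transcript of 747 bases, held 80.9% of the *Tbk1* TPM, Bnip3l-204 held 62.3% of the *Bnip3l* TPM, and Sqstm1-206, a retained-intron transcript of 457 bases, held 55.4% of the *Sqstm1* TPM. Of the estimated counts, which are not divided by length, they held less. Over the 6 libraries the shares of counts were 42.71% to 48.83% for Tbk1-207, 11.24% to 15.6% for Bnip3l-204 and 15.77% to 19.45% for Sqstm1-206.

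With the canonical transcript alone, 6 of the 10 genes had the same place in the order. *Sqstm1* still led (459 to 653 TPM) but *Tax1bp1* came next (328 to 376), ahead of *Bnip3* (191 to 278) and *Bnip3l* (164 to 212). *Fundc1* (46.9 to 72.9) and *Tbk1* (53.9 to 61.5) followed and overlapped. *Optn* had 46.8 ± 7.28 TPM in WT and 32.7 ± 6.0 in Drp1 KO (SD, n = 3) and overlapped with *Phb2*, which had 41.1 ± 5.48 and 38.2 ± 4.53. *Pink1* (18.9 to 28.8) and *Usp30* (3.74 to 5.01) were the lowest on both scales.

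**Figure D4:**
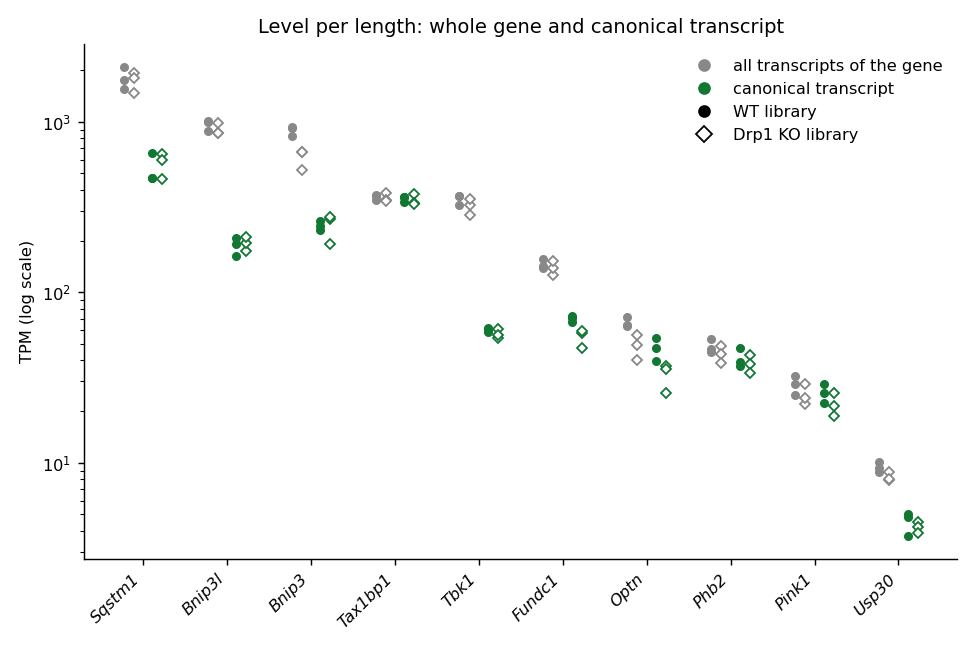
Level per length of the 10 genes in TPM on a log axis, ordered by the mean over all transcripts; gray symbols give the sum over a gene's transcripts, green symbols its canonical transcript, filled circles WT and open diamonds Drp1 KO libraries. *Tbk1* drops from 283 to 369.6 TPM for the whole gene to 53.9 to 61.5 for the canonical transcript, while *Tax1bp1* stays at 342 to 382 and 328 to 376.

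Genes that work with the members were taken from lists that, like the members, were chosen with earlier results of these data known. They were described in the fit without a block, where 2.29% of all genes passed on the higher and 1.06% on the lower side. With the block 12.0% passed in either direction. Of 8 other mitophagy receptors and adaptors tested none passed. The median log2 fold change was -0.03, and *Calcoco2*, which encodes NDP52, had 0 counts in all 6 libraries. *Calcoco1*, an adaptor for the endoplasmic reticulum, had 34.8 ± 2.76 CPM in WT and 27.0 ± 1.66 in Drp1 KO (adjusted p = 0.103), *Tollip* 105 ± 10.9 and 127 ± 7.39 (adjusted p = 0.223), and *Nlrx1* 14.1 ± 2.18 and 16.6 ± 0.837 (adjusted p = 0.476). With the replicate block *Calcoco1* (0.0304) and *Tollip* (0.0328) passed, lower and higher. None of the 5 *Atg8* family genes, whose products the receptors bind, passed, with a median of -0.15. The smallest unadjusted p among them was that of *Gabarapl1*, with 134 ± 18.3 and 111 ± 13.3 CPM (adjusted p = 0.323, and 0.0363 with the block), before *Map1lc3a* (-0.32, adjusted p = 0.463) and *Gabarap* (-0.15, adjusted p = 0.653).

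Of 25 regulators of PINK1 and parkin, 1 rose and 2 fell, with a list median of 0.03. *Tomm7*, the small subunit of the outer-membrane translocase that PINK1 needs to stay at the surface, had 34.0, 42.1 and 42.7 CPM in WT and 25.3, 22.7 and 21.6 in Drp1 KO. It fell by 0.77 on the log2 scale (SE 0.12, adjusted p = 0.00772), with adjusted p-values of 0.0538 when WT library 2 was left out and 0.0512 when Drp1 KO library 2 was. *Usp35*, another mitochondrial deubiquitinase, fell by 0.69 (SE 0.16, adjusted p = 0.0431), and leaving out any 1 of the 6 libraries raised its adjusted p to 0.0544 to 0.193. *Marchf5*, a ubiquitin ligase of the outer membrane that acts on DRP1 and FUNDC1, rose by 0.52 (SE 0.12, adjusted p = 0.0408), with 70.4 ± 8.14 CPM in WT and 101 ± 10.8 in Drp1 KO. Its adjusted p was 0.0616 to 0.23 without WT library 2 or 3 or without any 1 of the Drp1 KO libraries. With the block these 3 genes passed (0.00141, 0.0115 and 0.00116), among 7 of the 25, against 12.0% of all genes.

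Of 10 partners of TBK1 in innate signalling 1 rose, *Azi2*, which encodes the TBK1-binding adaptor NAP1. It had 79.6, 64.5 and 68.0 CPM in WT, and the Drp1 KO mean was 99.9 ± 0.558 (SD, n = 3), a log2 fold change of 0.50 (SE 0.10, adjusted p = 0.0263). The adjusted p was 0.188 and 0.165 when WT library 2 or 3 was left out, and 0.0965 and 0.0643 when Drp1 KO library 2 or 3 was. With the block *Azi2* passed (0.00304), among 3 of the 10, all higher. The list with the largest median change was that of genes induced by interferon, which TBK1 is known to help produce. Since the lists were chosen with earlier results known, this order of lists is not an independent outcome. All 14 interferon-stimulated genes were higher in every Drp1 KO than in every WT library, against 11.7% of all genes. Of the 14 genes 13 passed, and the median log2 fold change of the list was 2.21. *Oasl1*, *Usp18*, *Irf7* and *Ifi44* rose the most, by 3.57, 3.16, 3.09 and 2.82 on the log2 scale (SE 0.31, 0.21, 0.45 and 0.27). These 4 passed with any 1 library left out. *Irf7* had 74.6, 21.2 and 19.3 CPM in WT, and without WT library 1 its log2 fold change was 4.0, above that of *Usp18* (3.22).

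Programmes of transcription that include members or their neighbours were read in the same way. None of 22 HIF targets passed (median -0.09). Among them *P4ha2* had 54.8 ± 3.04 and 42.6 ± 2.88 CPM (adjusted p = 0.08), *Ddit4* a log2 fold change of 0.62 (adjusted p = 0.139) and *Adm* one of -0.68 (adjusted p = 0.158), and all 3 passed with the block, at 0.0103, 0.000906 and 0.000777, among 4 of the 22 (2 higher and 2 lower). All 15 genes of the list for NRF2, the factor that also drives *Sqstm1*, had lower means in Drp1 KO, with a median of -0.26, and 1 fell, *Txnrd1* (log2 fold change -0.59, SE 0.12, adjusted p = 0.0317, and 0.0591 to 0.136 without any 1 library other than Drp1 KO library 1). With the block 5 of the 15 passed, all lower, against 12.0% of all genes in either direction. Besides targets this list holds *Nfe2l2*, which encodes NRF2, and *Keap1*, which encodes its inhibitor. None of 17 genes of the list for TFEB, a factor for lysosome and autophagy genes, passed, and 13 of the 17 had higher means (median 0.08). Besides targets the list holds the factors themselves, *Tfeb* (-0.15), *Tfe3* (-0.15) and *Mitf* (-0.25), which are 3 of its 4 genes with lower means. *Gla* (0.40, adjusted p = 0.165), *Wipi1* (-0.24, adjusted p = 0.279) and *Neu1* (0.26, adjusted p = 0.293) had the smallest p-values, and *Gla* (0.0128) and *Neu1* (0.0456) passed with the block, among 3 of the 17, all higher. Of 13 genes of the integrated stress response 4 rose, *Psat1*, *Trib3*, *Phgdh* and *Asns*, by 0.84 to 1.02 on the log2 scale, with adjusted p-values of 0.0212 to 0.0455, and each was lost without WT library 2, among others (0.106 to 0.21). With the block these 4 had adjusted p-values of 0.000263 to 0.00262, and 7 of the 13 passed, all higher.

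**Figure D5:**
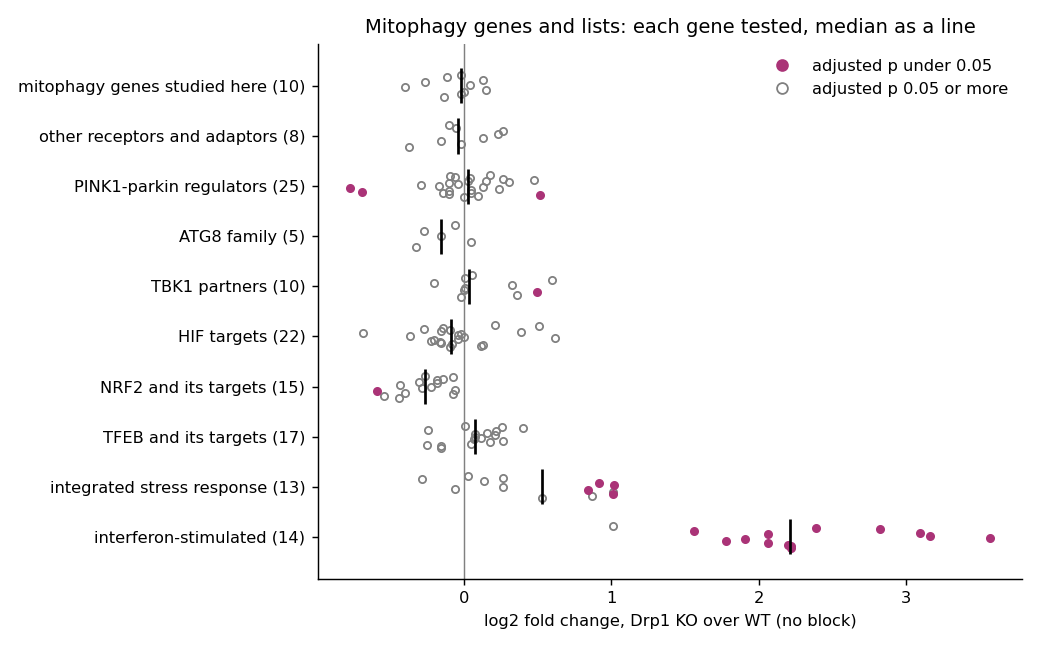
Log2 fold change of Drp1 KO over WT in the fit without a block (x axis) for each gene tested, in rows by list with the number of genes; filled points passed an adjusted p of 0.05, open points did not, and black lines are medians. The 10 mitophagy genes lie between -0.40 and 0.15, none filled, and the 14 interferon-stimulated genes have a median of 2.21.

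The marker lists differed between the groups in part. Of the 10 macrophage markers 1 rose, *Fcgr1* (log2 fold change 1.34, adjusted p = 0.000322), which encodes the Fc receptor CD64, and 2 fell, *Mertk* and *Csf1r* (both -0.52, adjusted p = 0.0236 and 0.034). With 1 library left out, *Mertk* had adjusted p-values up to 0.118 and *Csf1r* up to 0.133. Of 9 neutrophil markers tested 8 had higher means in Drp1 KO and none passed (median 1.03), while 5 passed with the block, all higher, against 12.0% of all genes. *S100a8* had 1.90, 3.22 and 3.85 CPM in WT and 2.91, 9.65 and 10.8 CPM in Drp1 KO. *S100a9* and *Ngp* had adjusted p-values of 0.139 and 0.107 without the block.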

How the data were processed

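Estimated counts, TPM and effective lengths were deposited per transcript for 3 WT and 3 Drp1 KO BMDM libraries. The authors sequenced poly(A) RNA with paired-end reads and ran kallisto (0.46.1 per the labels) on an index of GRCm39 cDNA; the deposited estimated counts are not scaled between libraries, and the deposited TPM is scaled within each. Transcripts were matched by identifier to GENCODE (GRCm39; 99.4% of 116873 matched, and 0.542% to 0.575% of the counts lay on others and were left out), and estimated counts were summed per gene and rounded.

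Genes with at least 10 counts were tested with edgeR 4.0.16 (R 4.3.3; TMM, quasi-likelihood test, no covariate), with Benjamini-Hochberg adjustment over 18506 genes; the 95% intervals use its standard errors, taken as the fold change over the square root of F. Depth was 23389488 to 32231206 counts. In simulated data of 18120 genes with 200 changed 2-fold, 80.5% of the changed genes were recovered, with 13 false calls. The simulated libraries were drawn independently, without the place of libraries 1. No member changed by more than 0.40 on the log2 scale, which is less than 2-fold, so this recovery does not measure the power for the members. Members and lists were chosen with earlier results of these data known. Named genes were all 10 members and *Dnm1l*, up to 4 genes of each list that passed with the largest change (at least 1 CPM), or, where none passed, up to 3 with the smallest p, and the 3 genes nearest to the member with the smallest p. The marker lists were for macrophages, neutrophils, dendritic cells, lymphocytes and fibroblasts.

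WT and Drp1 KO libraries share the replicate numbers 1 to 3. Over 12248 genes, same-numbered libraries had deviations that correlated at 0.51, 0.204 and 0.298, each over 0.1, so they were taken as pairs, from the data and not from a stated design; pairs of different numbers ran from -0.443 to 0.326. The chi-square per degree of freedom between any 2 libraries was at least 10.38, so no library copied another. Alternatives were DESeq2 1.42.0, limma-voom 3.58.1, other size factors, filters and counts per gene, the replicate block and each library left out; those added after seeing the data left out libraries 1 or a pair, joined the block with length scaling, or used single transcripts. Sequences were read from the GRCm39 genome. The authors' own comparisons of these libraries were not used here.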

Additional observations from a re-analysis of the deposited data

How the results depend on the processing

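The 10 members gave no call at an adjusted p of 0.05 in the fit without a block or in any alternative without it, and 2 calls with the replicate block and with the replicate block on length-scaled counts (added after seeing the data). With the block and without pair 1 or without pair 2, 1 member passed, *Optn*, and without pair 3 none did. By the study's criteria 1 member was called, and 2 with length-scaled counts, with or without the block; with 1 library left out the count ran from 0 to 1. Of the 128 genes tested from the lists other than those of cell type markers, each counted once, 22 passed, 46 with the replicate block, 38 with the block on length-scaled counts, 45 without libraries 1 of both groups, and 13 to 25 with 1 library left out. Of all genes 621 passed, 1155 with DESeq2, 1065 with no filter beyond 1 count, 2212 with the replicate block, 1749 with the block on length-scaled counts, 1880 without libraries 1, and 181 (without WT library 2) to 904 (without Drp1 KO library 1) with 1 library left out.

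*Optn* and *Bnip3* kept a negative fold change in all 20 alternatives, from -0.55 to -0.24 and from -0.45 to -0.17, as did *Pink1* and *Tbk1*, and *Sqstm1* a positive one. The sign turned for 5 members, each with a fold change near 0. *Bnip3l* had -0.0083 with length-scaled counts and -0.0086 with the block added. *Fundc1* had 0.0051 with length-scaled counts, 0.0096 with the block added, 0.01 without libraries 1 and 0.01 with the block without pair 1. *Tax1bp1* had -0.0098 without libraries 1 and -0.01 with the block without pair 1, *Phb2* 0.0039 and *Usp30* 0.09 with the block without pair 3, and *Usp30* 0.0092 with protein-coding transcripts only. With 1 library left out, *Sqstm1* ran from 0.02 (without Drp1 KO library 1) to 0.33 (without WT library 1), *Pink1* from -0.29 (without Drp1 KO library 1) to -0.03 (without WT library 1), *Tax1bp1* from -0.07 to 0.11, *Phb2* from -0.14 to 0.10 and *Usp30* from -0.10 to 0.08. The cause of these differences was not tested.

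With 3 libraries a group and depths of at least 23389488 counts, the members held 465 (*Usp30* in WT library 2) to 42788 counts (*Sqstm1* in Drp1 KO library 2) in a library; the 95% intervals of the 8 smaller changes reach at most 0.53 on the log2 scale in either direction.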

Other observations

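The values of 2 transcripts of other members, chosen after their values had been seen, are given here. Sqstm1-203, a retained-intron transcript, had 58.0, 71.5 and 75.2 CPM in WT libraries 1 to 3 and 104, 24.3 and 37.5 CPM in Drp1 KO libraries 1 to 3. Optn-201 had 0, 1.48 and 4.24 CPM in WT and 4.29, 1.82 and 1.32 CPM in Drp1 KO. The tables split such overlapping transcripts by a model, and no error of that split was used here.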
